A study of Danio rerio with 6 samples.

Results

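The levels of 5 genes that hold epithelial cells together were followed in pronephros dissected from zebrafish larvae with gentamicin-induced acute kidney injury (gent-AKI), treated with the histone deacetylase inhibitor prodrug UPHD25 or with its vehicle. The members, chosen by Ensembl gene identifier, were the cadherins cdh1 (E-cadherin, ENSDARG00000102750) and cdh2 (N-cadherin, ENSDARG00000018693), the cadherin-bound catenin ctnnb1 (β-catenin, ENSDARG00000014571), the tight junction protein cldnb (claudin b, ENSDARG00000009544) and the surface adhesion molecule epcam (ENSDARG00000040534). They were 5 of the 32520 genes in the count table, and all 5 passed the filter on low counts. The rule names them by identifier and uses no measured value, although they were chosen with earlier results of these data known.

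Every larva carried the Tg(PT:EGFP) transgene, which labels the proximal tubule with green fluorescence, and every larva was injected with gentamicin at 3 days post-fertilization (dpf). At 2 days post-injection (5 dpf) injured larvae were kept for 24 h in 1% DMSO (gent-AKI+DMSO) or in 1 μM UPHD25 in 1% DMSO (gent-AKI+UPHD25), and fluorescent pronephros was dissected by hand at 6 dpf. UPHD25 is a methyl ester that delivers PTBA, the inhibitor itself. The groups had 3 libraries each, every one from 100 pooled larvae, and the submitters describe them as biological replicates. Injury and DMSO were therefore common to both groups, no uninjured group was analysed here, and the p-values below measure the spread between pools. The study profiled these tubules to ask whether UPHD25 shifts injured epithelium towards a mesenchymal state, and the comparison below asks how the junction genes differed between the treatments.

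In an epithelium, cadherins of neighbouring cells bind each other outside the cell, while their tails hold β-catenin, which through α-catenin reaches the actin cytoskeleton. β-catenin released from this complex also carries the Wnt signal to the nucleus. Claudins lie nearer the apical surface and seal the space between cells, and EpCAM lies along the lateral membrane, where in mammals it binds a claudin. In the mammalian nephron N-cadherin is the main cadherin of the proximal tubule and E-cadherin that of more distal segments, and a loss of E-cadherin with a gain of N-cadherin is a textbook sign of epithelial-to-mesenchymal transition.

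Total counts per library ranged from 10781071 to 30750026, with the DMSO and UPHD25 libraries of replicate 1 the deepest of their groups. Levels are given as CPM, counts scaled to the library size after correction by the trimmed mean of M-values (TMM), on which 3 counts correspond to between 0.1003 and 0.2885 CPM depending on the library. The TMM factor was 1.21 in UPHD25 library 3 and between 0.903 and 1.00 in the others, so that library's place in an order of libraries depends on the scaling, and levels by library totals are given where they change it. CPM are not divided by transcript length, so levels of different genes were not ranked. The libraries also held RNA from outside the tubule. Summed marker levels in DMSO and UPHD25 libraries ran from 3138 to 3569 and from 2254 to 3694 CPM for proximal tubule, from 18652 to 20869 and from 8397 to 15802 CPM for skeletal muscle, and from 10444 to 16285 and from 3329 to 9532 CPM for exocrine pancreas. In such bulk samples fewer cells of a type and less RNA per cell cannot be told apart.

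None of the 5 members passed the test across all genes. Of the 17497 genes tested with edgeR's quasi-likelihood test, 0% (0 genes) had a Benjamini-Hochberg adjusted p under 0.05, while 12.5% had an unadjusted p under 0.05, 9.09% with a higher and 3.41% with a lower level after UPHD25. DESeq2 called 636 genes at an adjusted p under 0.05 on the same libraries, and no member was among them. At the unadjusted threshold 1 of the 5 members, cdh1, was counted, with a lower level after UPHD25. Its unadjusted p was under 0.05 in 11 of 16 alternative fits and above it by library totals (0.0511) and without DMSO library 2 (0.133), DMSO library 3 (0.0926), UPHD25 library 1 (0.0709) or UPHD25 library 3 (0.0780). In none of the 5 were the UPHD25 libraries all above or all below the DMSO libraries, against 10.4% of all genes with UPHD25 wholly above and 7.46% wholly below.

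**Figure D1:**
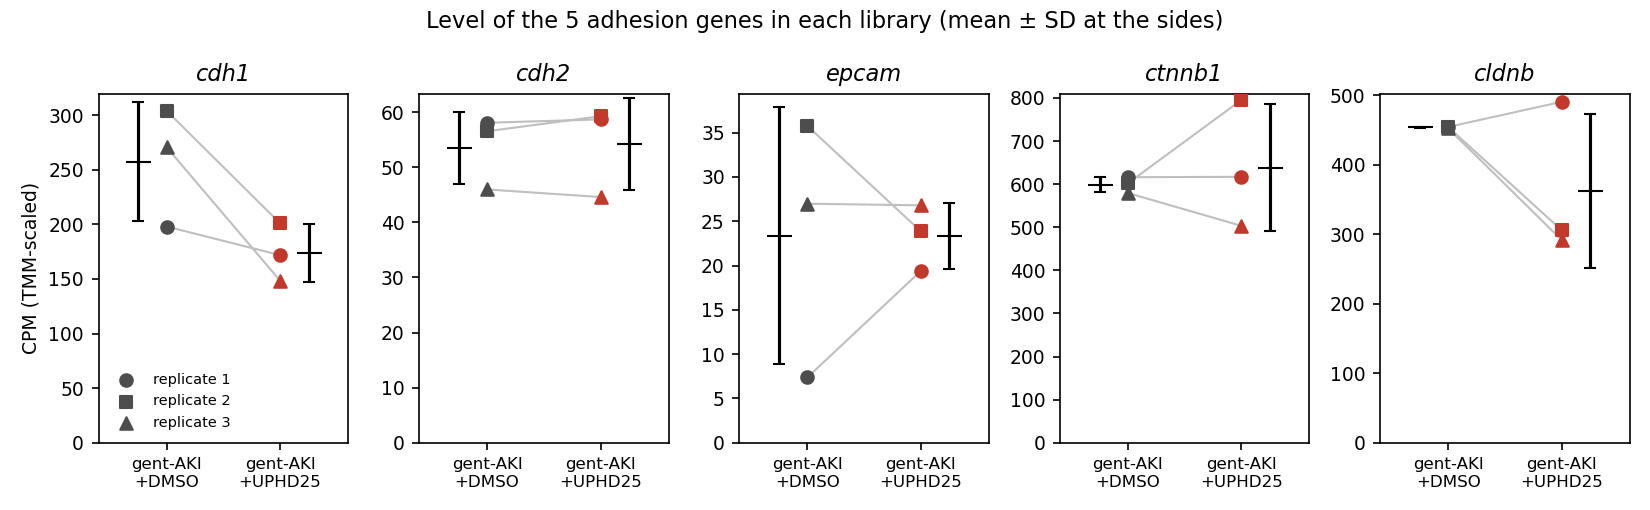
CPM (linear axes starting at 0) of the 5 adhesion genes in each of the 6 libraries, with the mean and SD of each group of 3. For cdh1 the UPHD25 libraries sit between 148 and 201 CPM and the DMSO libraries between 198 and 304 CPM, while the epcam panel holds 1 low DMSO library at 7.39 CPM.

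The member with the largest difference on the log2 scale was cdh1. E-cadherin is the classical cadherin of epithelia and in zebrafish is also strongly expressed in the skin. The gene had 197.9, 303.8 and 270.4 CPM in DMSO libraries 1, 2 and 3, and 171.7, 200.8 and 148.3 CPM in UPHD25 libraries 1, 2 and 3. The ranges overlapped only through DMSO library 1, which lay just under UPHD25 library 2, and the remaining DMSO libraries stood above every UPHD25 library. The mean was 257 ± 54.1 CPM (SD, n = 3) with DMSO and 174 ± 26.3 CPM (SD, n = 3) with UPHD25. The fitted log2 fold change was -0.57 (SE 0.22), a ratio of 0.675 with a 95% interval from 0.471 to 0.966. By edgeR its unadjusted p was 0.0354 and its adjusted p 0.352, and the exact two-sided permutation test of CPM gave p = 0.2, where 3 against 3 libraries cannot go below 0.1.

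Same-numbered pools gave cdh1 differences of -0.20, -0.60 and -0.87 on the log2 scale for numbers 1, 2 and 3, so the UPHD25 pool was lower in 3 of 3 pairs. The labels do not state that same-numbered pools belong together. With the replicate number as a block in the edgeR fit the log2 fold change was -0.56 and the adjusted p 0.264. Of all genes tested, 6.53% had a lower log2 fold change than cdh1. The sign of the cdh1 difference was the same in 17 of 17 alternative settings, all on these same libraries, with log2 fold changes from -0.75 to -0.42. The value of -0.42 came from a scaling to proximal tubule markers, described below with its limits, that was not fitted in edgeR. Adjusted p-values ran from 0.216 upwards where a test was fitted.

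N-cadherin, the partner in the cadherin switch, did not follow this pattern. The cdh2 gene had 58.05, 56.51 and 45.95 CPM in DMSO libraries 1, 2 and 3, and 58.67, 59.24 and 44.58 CPM in UPHD25 libraries 1, 2 and 3. The groups overlapped fully and, on the TMM scale, the lowest library of each was number 3. Means were 53.5 ± 6.58 and 54.2 ± 8.304 CPM (SD, n = 3 each). The log2 fold change was 0.02 (SE 0.19), the ratio had a 95% interval from 0.746 to 1.37, and the adjusted p by edgeR was 0.985. The differences within same-numbered pools were 0.02, 0.07 and -0.04, higher with UPHD25 in 2 of 3 pairs.

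Because both cadherins are read in the same tube, their ratio needs no scaling between libraries. For each 100 counts on cdh1 there were 29.3, 18.6 and 17.0 counts on cdh2 in DMSO libraries 1, 2 and 3, and 34.2, 29.5 and 30.1 in UPHD25 libraries 1, 2 and 3. Every UPHD25 library was above every DMSO library, although DMSO library 1 and UPHD25 library 2 nearly touched. On the log2 scale the mean ratio was -2.25 ± 0.42 with DMSO and -1.68 ± 0.12 with UPHD25 (SD, n = 3 each), a difference of 0.57. The exact two-sided permutation test gave p = 0.1, the smallest that this design allows, and 0.5 after Benjamini-Hochberg adjustment over the 10 ratios that 5 genes form.

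Among those 10 ratios, 1 more kept the groups apart. The log2 ratio of ctnnb1 to cdh1 was 1.64, 0.987 and 1.0995 in DMSO libraries 1, 2 and 3 and 1.85, 1.99 and 1.76 in UPHD25 libraries 1, 2 and 3. All 3 UPHD25 values exceeded the highest DMSO value, with a difference between means of 0.62 and the same exact permutation p of 0.1. Both ratios have cdh1 as denominator, so they repeat the lower cdh1 level and are not separate observations. The other 8 ratios overlapped between the groups.

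**Figure D2:**
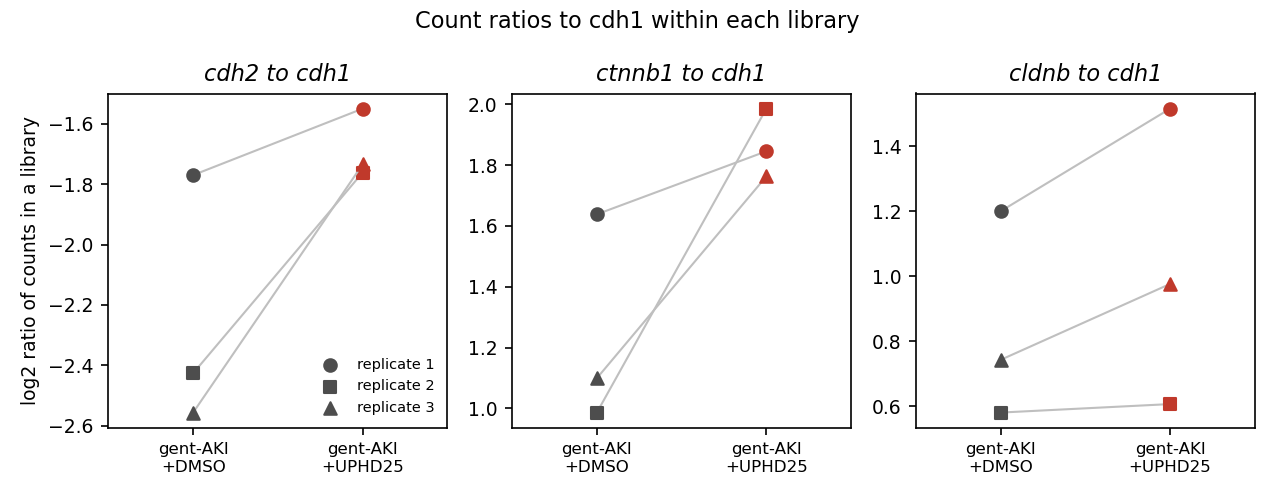
Log2 ratio of the counts of cdh2, ctnnb1 and cldnb to those of cdh1, with each library as a point. The cdh2 to cdh1 and ctnnb1 to cdh1 ratios are the 2 in which all UPHD25 points lie above all DMSO points.

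β-catenin is the protein shared by the junction and the Wnt pathway. The ctnnb1 gene had 616, 602 and 579 CPM in DMSO libraries 1, 2 and 3, and 617, 795 and 503 CPM in UPHD25 libraries 1, 2 and 3. UPHD25 library 2 was the highest of all 6, and on this scale UPHD25 library 3 was the lowest. By library totals the values were 600, 544 and 579 with DMSO and 598, 768 and 610 with UPHD25, so the groups overlapped under both scalings but UPHD25 library 3 was lowest under TMM only. The mean was 599 ± 18.5 CPM (SD, n = 3) with DMSO and 638 ± 147 CPM (SD, n = 3) with UPHD25. Over all genes the median SD of log2 CPM was likewise wider with UPHD25, 0.385 against 0.252, and the UPHD25 SD of ctnnb1 was 0.330. The log2 fold change was 0.09 (SE 0.23), the 95% interval of the ratio ran from 0.743 to 1.53 and the adjusted p by edgeR was 0.925. Without UPHD25 library 2 the log2 fold change was -0.10.

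The zebrafish genome holds a second β-catenin gene, ctnnb2, whose reads may be hard to assign where the coding sequences are alike. It had 529, 629 and 507 CPM in DMSO libraries 1, 2 and 3 and 605, 756 and 365 CPM in UPHD25 libraries 1, 2 and 3. As for ctnnb1, UPHD25 library 2 was the highest of the 6, and UPHD25 library 3 was the lowest, also by library totals. Its log2 fold change was 0.05 (SE 0.29, edgeR adjusted p 0.971).

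Claudin b seals pronephric and skin epithelia in zebrafish. The cldnb gene had 454.7, 454.5 and 452.6 CPM in DMSO libraries 1, 2 and 3, and 491, 306 and 292 CPM in UPHD25 libraries 1, 2 and 3. UPHD25 libraries 2 and 3 lay below every DMSO library and UPHD25 library 1 above every one of them. Means were 454 ± 1.15 CPM with DMSO and 363 ± 111 CPM with UPHD25 (SD, n = 3 each). The log2 fold change was -0.32 (SE 0.24), the 95% interval of the ratio ran from 0.541 to 1.18 and the adjusted p by edgeR was 0.688. Without UPHD25 library 1 the log2 fold change was -0.61 and the adjusted p 0.189.

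On the TMM scale the DMSO values for cldnb lay closer together than their counting error. The counting error alone of a single DMSO library was between 3.90 and 6.52 CPM, more than the SD of 1.15 CPM over the 3 libraries. The SD of log2 CPM over the DMSO libraries was 0.0037 for cldnb, and 0.0171% of genes tested had a smaller one, against a median of 0.252 over all genes. By library totals the DMSO values were 443, 411 and 453, so the closeness belonged to the TMM scale. The SD is therefore too small to stand for the spread between pools, and the edgeR fit, which borrows the spread from all genes, was used for the test.

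Within the claudin family, cldnb took 45.6%, 45.0% and 45.5% of the counts on 31 claudin genes in DMSO libraries 1, 2 and 3, and 45.3%, 40.9% and 33.4% in UPHD25 libraries 1, 2 and 3. UPHD25 library 1 lay inside the DMSO range and the remaining UPHD25 libraries lay below it (exact two-sided permutation p = 0.2, n = 3 per group). The other 30 claudins together had 543, 555 and 542 CPM with DMSO and 592, 443 and 582 CPM with UPHD25. In UPHD25 library 2 both cldnb and the sum of the others were low, whereas in UPHD25 library 3 cldnb was low and that sum was not. The sum does not show the level of any single claudin.

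EpCAM was the member with the most uneven level. The epcam gene had 7.39, 35.7 and 27.0 CPM in DMSO libraries 1, 2 and 3, and 19.4, 23.9 and 26.8 CPM in UPHD25 libraries 1, 2 and 3. DMSO library 1 lay below all others, and the 3 UPHD25 values lay between it and DMSO library 3, although by library totals UPHD25 library 3 (32.5) was the highest. Means were 23.4 ± 14.5 CPM with DMSO and 23.3 ± 3.72 CPM with UPHD25 (SD, n = 3 each). The log2 fold change was 0.01 (SE 0.49, edgeR adjusted p 0.997), and the 95% interval of the ratio, from 0.460 to 2.20, was the widest of the 5 members.

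The low epcam value came from the deepest library. It rested on 221 counts, with a 95% Poisson interval from 6.44 to 8.43 CPM that covers counting error only, and the next lowest library was 2.63-fold higher. In DMSO library 1, 80 of 17497 genes (0.457%) were at least 2-fold below every other library, a number that ran from 74 to 379 in the other 5 libraries. A gap as large as that of epcam was found for 36 genes there. The DMSO spread of epcam on the log2 scale was 1.20, above that of 98.7% of genes tested. Without DMSO library 1 its log2 fold change was -0.45 (edgeR adjusted p 0.642), and without DMSO library 2 it was 0.45.

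**Figure D3:**
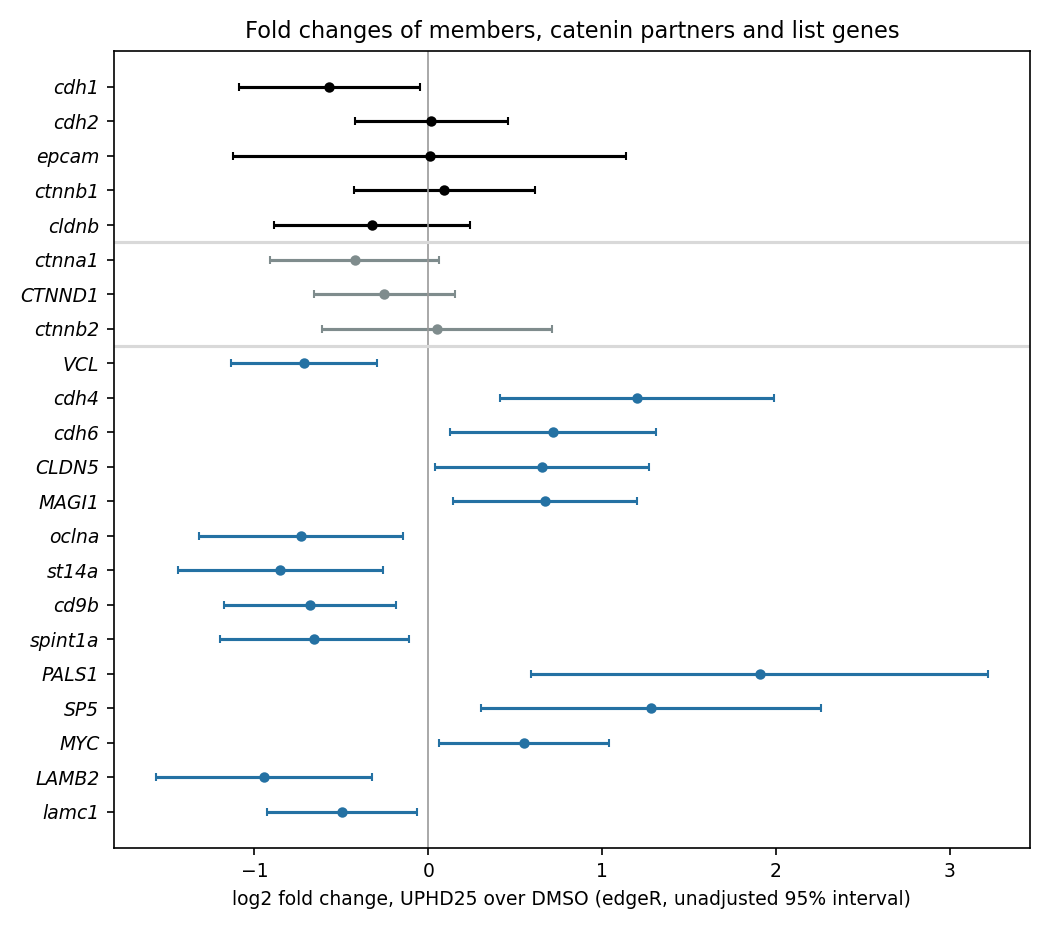
Fitted log2 fold change (UPHD25 over DMSO, edgeR) of each member with its unadjusted 95% interval. Below the members are ctnna1, CTNND1, ctnnb2 and the 14 adhesion genes named by rule. Those 14 were named for an unadjusted p under 0.05 and no overlap between the groups. The interval of cdh1 runs from -1.09 to -0.05, and those of cdh2, epcam, ctnnb1 and cldnb all include 0.

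No library was high or low for all 5 members. On the TMM scale UPHD25 library 3 had the lowest value of cdh1, cdh2, ctnnb1 and cldnb but not of epcam. By library totals it was the lowest for none of the 5, and the lowest were UPHD25 library 1 for cdh1 (167), DMSO library 3 for cdh2 (45.9), DMSO library 2 for ctnnb1 (544), UPHD25 library 2 for cldnb (296) and DMSO library 1 for epcam (7.20). UPHD25 library 2 held the highest value of cdh2 and ctnnb1 under both scalings. UPHD25 library 3 also had the lowest summed proximal tubule markers, 2254 CPM, of which ctsla gave 885 CPM against 1870 to 2485 CPM elsewhere. Without ctsla the sum there was 1369 CPM, inside the range of 1120 to 1488 CPM in the other libraries. It had the highest summed epidermal markers, 2866 CPM against 800 to 1134 CPM elsewhere. Scaling to the proximal tubule markers, an alternative chosen after seeing the data, was read as differences of mean log2 level, without an edgeR fit. These were -0.42 for cdh1, 0.15 for cdh2, 0.40 for epcam, 0.20 for ctnnb1 and -0.23 for cldnb. On TMM-scaled CPM the same measure was -0.56, 0.01, 0.27, 0.07 and -0.36 in that order, and these are the values to compare. The marker sum behind the scaling included ctsla, which was low in UPHD25 library 3, and a scaling without ctsla was not run.

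**Figure D4:**
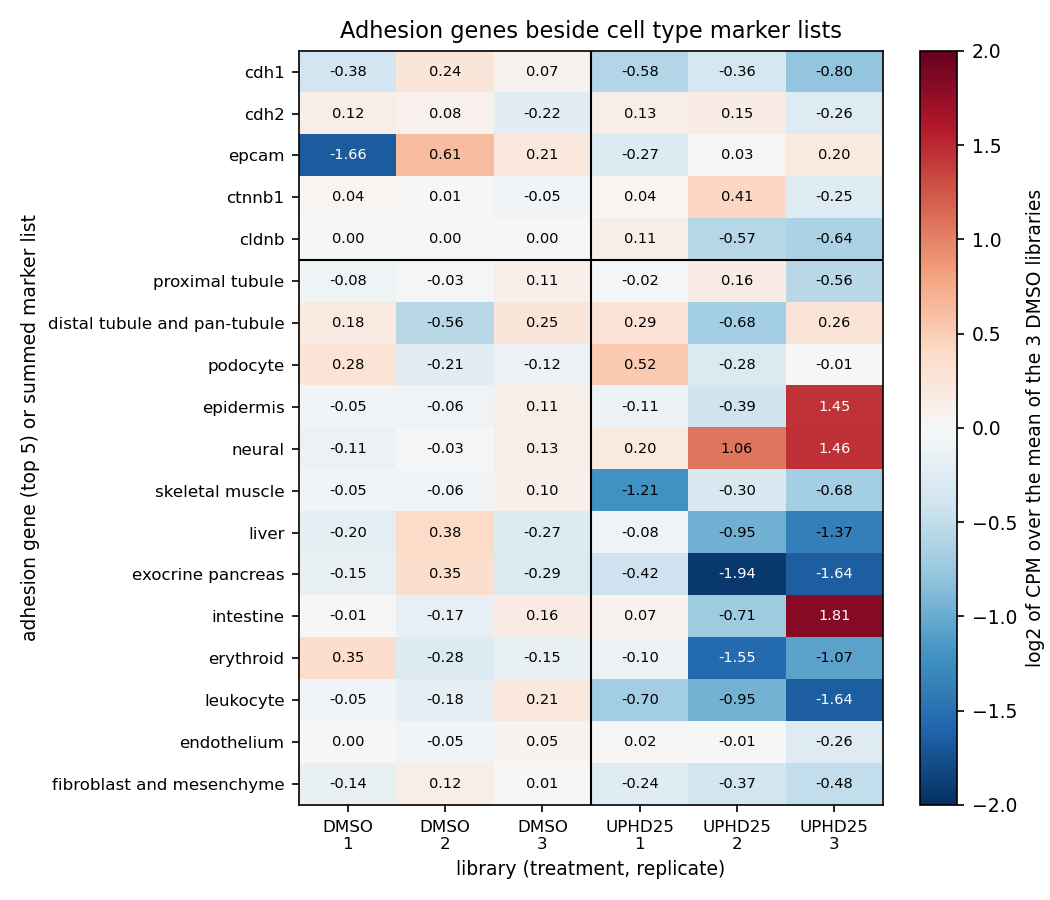
Log2 level of the 5 adhesion genes and of the summed markers of each cell type in the 6 libraries, relative to the mean of the DMSO libraries, on the TMM scale. UPHD25 library 3 has cdh1 at -0.80 and cldnb at -0.64 beside epidermal markers at 1.45 and proximal tubule markers at -0.56.

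Markers of other tissues also differed between the treatments. Summed neural markers had 466 to 552 CPM with DMSO and 576 to 1387 CPM with UPHD25. Of these markers 14 of 14 were higher, 7 with an unadjusted p under 0.05, against 52.7% and 9.09% of all genes. All 11 tested muscle markers and all 9 pancreatic markers were lower, 4 and 5 of them with an unadjusted p under 0.05. So were all 6 tested leukocyte markers, each with an unadjusted p under 0.05. Over all genes 47.3% were lower, and 3.41% were lower at that threshold. The leukocyte markers summed to 247 to 324 CPM with DMSO and 90.0 to 173 CPM with UPHD25. Summed fibroblast and mesenchyme markers had 8384 to 10074 CPM with DMSO and 6621 to 7824 CPM with UPHD25, with 1 of 14 higher and 1 lower at that threshold. FN1 (fibronectin) accounted for most of that difference, since without it the sums overlapped at 3953 to 4585 and 3625 to 4439 CPM. Summed epidermal, liver, intestinal, erythroid, endothelial, podocyte and distal tubule markers overlapped between the groups. Of the tested markers, 10 of 10 liver and 3 of 3 erythroid ones had lower fitted values, and 9 of 11 epidermal and 8 of 11 intestinal ones had higher ones. Of the liver, erythroid and epidermal markers 0 had an unadjusted p under 0.05. Endothelial, podocyte and distal tubule markers had fitted values of either sign. Of 9 tested distal and pan-tubule markers, 2 (22.2%) were higher at that threshold, against 9.09% of all genes. In 2 of the 9 every UPHD25 library was above every DMSO library, against 10.4% of all genes. Of 5 tested endothelial and 11 tested intestinal markers, 1 each was lower at that threshold, and 0 podocyte markers passed it. The proximal tubule list overlapped between the groups, with 0 of 12 tested markers at an unadjusted p under 0.05. In that list 7 of 12 fitted values were higher and the median log2 fold change was 0.06. Group means with DMSO and UPHD25 were 2023 and 1765 CPM for ctsla, 826 and 869 CPM for SLC20A1, and 153 and 105 CPM for DAB2. Of 135 marker identifiers 5 had 0 counts in all 6 libraries, among them pvalb2 and TNNC2 of muscle, lyz of leukocytes and alas2 of erythroid cells. The part of these tissues in the levels of the 5 members, the cdh1 and cldnb differences included, and in the cdh2 to cdh1 ratio was not tested.

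The wider junction machinery was read from 8 lists with 158 gene identifiers, of which 134 passed the filter. Symbols in capitals are the human-style names of the annotation, which do not tell zebrafish a and b copies apart. Of the 134, 0 passed the adjusted threshold (smallest adjusted p by edgeR 0.207). At an unadjusted p under 0.05 there were 15 (11.2%), 7 higher and 8 lower with UPHD25, close to the 12.5% of all genes, and the median log2 fold change was -0.06 against 0.03 for all genes. By library totals in place of TMM the split was 10 higher and 5 lower, and the median of all genes was 0.15. Without DMSO library 2 the 15 became 7, without DMSO library 3 they became 9 and without UPHD25 library 3 they became 25.

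In the adherens junction list, 2 of 20 tested genes were higher and 2 lower at an unadjusted p under 0.05. Over all genes 9.09% were higher and 3.41% lower at that threshold. On the TMM scale 3 of the 20 had UPHD25 wholly above DMSO, against 10.4% of all genes. Wholly below were 5, against 7.46% of all genes. The lower genes at the unadjusted threshold were cdh1 and VCL. Vinculin (VCL), which ties cadherin complexes under tension to actin, had 61.8, 55.7 and 51.5 CPM in DMSO libraries 1, 2 and 3 and 40.1, 32.6 and 30.1 CPM in UPHD25 libraries 1, 2 and 3. Every UPHD25 library was below every DMSO library, with a log2 fold change of -0.72 (SE 0.18, edgeR adjusted p 0.207). A second VCL identifier was at -0.42, also without overlap (edgeR unadjusted p 0.0610). The part of other tissues in the VCL levels, muscle among them, was not tested. The higher genes were the classical cadherins cdh4 (R-cadherin) and cdh6 (K-cadherin), both also expressed in the nervous system. Their log2 fold changes were 1.20 (SE 0.34, edgeR adjusted p 0.228) and 0.72 (SE 0.26, adjusted p 0.297).

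For cdh4 the values were 5.28, 5.99 and 4.08 CPM with DMSO and 7.93, 10.3 and 17.1 CPM with UPHD25, so all UPHD25 libraries were higher and library 3 the highest. The same held for cdh6, with 21.5, 17.1 and 18.9 CPM against 30.4, 22.1 and 42.1 CPM. The neural markers, 576, 1051 and 1387 CPM in UPHD25 libraries 1, 2 and 3, were likewise highest in library 3, and their part in these values was not tested. Without UPHD25 library 3 the log2 fold changes were 0.82 for cdh4 and 0.46 for cdh6.

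The catenins nearest to the members, added outside the rule for named genes and after their values were seen, included α-catenin and p120-catenin. The α-catenin gene ctnna1, which joins β-catenin to actin, had 363, 481 and 446 CPM with DMSO and 315, 373 and 273 CPM with UPHD25. Its ranges overlapped only through DMSO library 1, as for cdh1, and its log2 fold change was -0.42 (SE 0.21, edgeR adjusted p 0.480). The gene of p120-catenin (CTNND1), which keeps cadherins at the membrane, had 144, 180 and 161 CPM against 123, 143 and 142 CPM. Here every UPHD25 library was below every DMSO library, by a narrow margin, at a log2 fold change of -0.25 (SE 0.17, edgeR adjusted p 0.651), but by library totals the groups overlapped. The other catenin genes of the list had fitted values of either sign. CTNNA2, an α-catenin gene best known from neurons, had 16.1, 19.2 and 19.5 CPM against 19.3, 27.4 and 31.6 CPM, with a log2 fold change of 0.52 (SE 0.23, edgeR unadjusted p 0.0537, adjusted p 0.411). The JUP identifiers (plakoglobin) were at 0.47 (adjusted p 0.642) and -0.69 (adjusted p 0.624).

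Among tight junction genes the counts were low in both directions. Of 19 tested claudins, 1 (5.26%) was higher at an unadjusted p under 0.05, against 9.09% of all genes, and 0 were lower. The higher gene was CLDN5, a claudin best known from endothelium. It had 94.1, 60.2 and 80.6 CPM with DMSO and 167, 103 and 99.6 CPM with UPHD25 (log2 fold change 0.65, edgeR adjusted p 0.369). Fitted values were higher for 8 of the 19 and lower for 11, with a median log2 fold change of -0.04. The lower ones included cldna at -0.84 and cldn1 at -0.80 (edgeR unadjusted p 0.0829 and 0.0526). Of 21 tested scaffold and membrane proteins, 1 was higher and 1 lower at an unadjusted p under 0.05, against 9.09% and 3.41% of all genes. Fitted values were lower for 15 of the 21 (71.4%), against 47.3% of all genes. By library totals 8 of the 21 were lower and 13 higher. The scaffold gene MAGI1 had 17.4, 19.6 and 13.8 CPM against 21.3, 32.2 and 27.5 CPM (log2 fold change 0.67, edgeR adjusted p 0.274). The lower gene was oclna, which encodes the tight junction membrane protein occludin, with 96.7, 136 and 70.8 CPM against 66.6, 63.5 and 52.8 CPM (log2 fold change -0.73, edgeR adjusted p 0.286). In CLDN5, MAGI1 and oclna the groups did not overlap, although without DMSO library 2 the oclna value was -0.47. The second identifiers with the symbols CLDN5 and MAGI1 were each at a log2 fold change of 0.11. Their groups overlapped (edgeR unadjusted p 0.603 and 0.597).

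The list of EpCAM partners held the largest share of low p-values. Of its 8 tested genes, 3 (37.5%) were lower at an unadjusted p under 0.05, against 3.41% of all genes. None was higher, and the median log2 fold change was -0.21. With so few genes the share rests on these 3. The claudin genes of the list, cldn7a and cldn7b, did not pass the filter on low counts. The lower genes were the membrane serine protease gene st14a (matriptase), its inhibitor spint1a and the tetraspanin gene cd9b. Matriptase cleaves EpCAM in mammals.

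In DMSO libraries 1, 2 and 3, st14a had 62.9, 110 and 69.4 CPM, and 40.3, 40.0 and 53.8 CPM in UPHD25 libraries 1, 2 and 3, a log2 fold change of -0.85 (SE 0.25, edgeR adjusted p 0.240). Its inhibitor spint1a had 96.0, 171 and 138 CPM against 77.4, 94.8 and 84.8 CPM, a log2 fold change of -0.66 (SE 0.24, adjusted p 0.298). The gene cd9b had 96.9, 142 and 96.8 CPM against 75.1, 74.4 and 59.6 CPM, a log2 fold change of -0.68 (SE 0.21, adjusted p 0.248). All 3 had their highest value in DMSO library 2, as cdh1 did, and no overlap between the groups on the TMM scale. By library totals the groups overlapped for st14a and spint1a, but not for cd9b. Without DMSO library 2 the values were -0.57 for st14a, -0.46 for spint1a and -0.48 for cd9b, and 1 of the 3 kept an unadjusted p under 0.05.

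**Figure D5:**
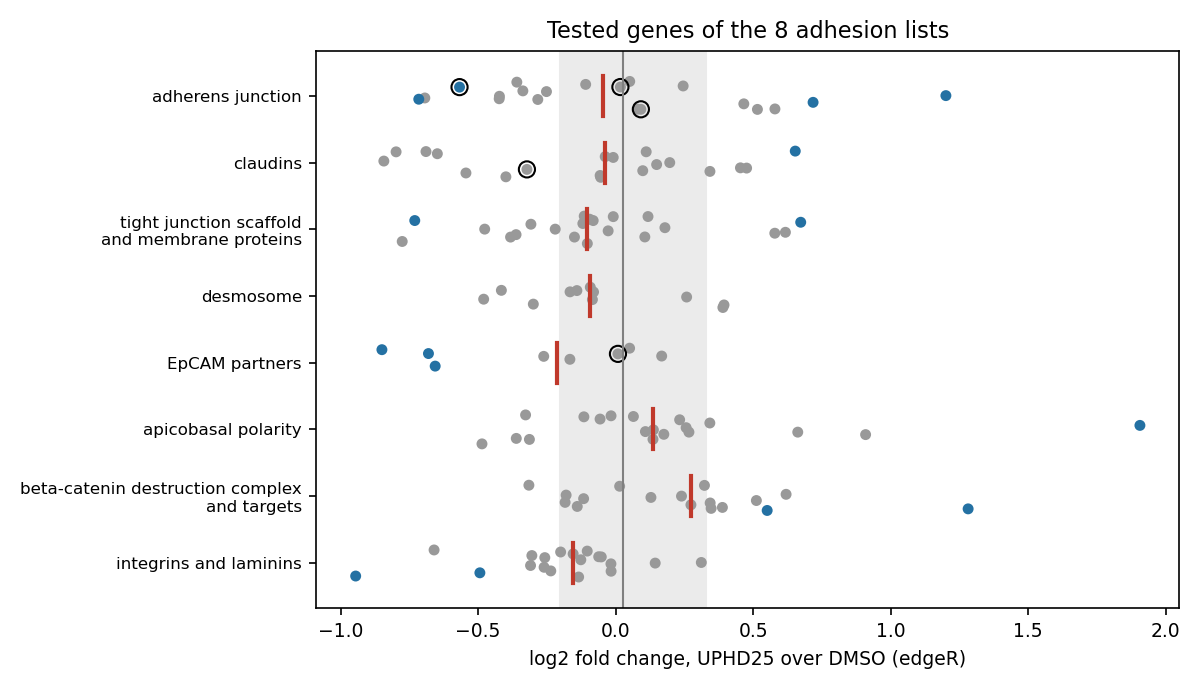
Log2 fold change (UPHD25 over DMSO) of the tested genes of each of the 8 adhesion lists, as points with the median of the list. Medians run from -0.21 for the EpCAM partners to 0.27 for the β-catenin pathway, and 0 of the 134 genes passed the adjusted threshold.

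The Wnt list was near the background of all genes at the unadjusted threshold. By overlap of the groups, 4 of its 17 tested genes had UPHD25 wholly above DMSO, against 10.4% of all genes, and 0 wholly below, against 7.46%. Of 17 tested genes of the destruction complex and its targets, 12 had a higher and 5 a lower fitted value, where 52.7% of all genes had a higher one, and the median log2 fold change was 0.27. At an unadjusted p under 0.05, 2 of the 17 (11.8%) were higher, against 9.09% of all genes. The target SP5, a transcription factor gene, had 1.17, 2.06 and 2.25 CPM with DMSO and 2.61, 5.39 and 5.17 CPM with UPHD25 (log2 fold change 1.28, SE 0.42, edgeR adjusted p 0.265). MYC, the growth regulator, had 242, 201 and 241 CPM against 386, 354 and 262 CPM (log2 fold change 0.55, SE 0.21, edgeR adjusted p 0.337).

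In SP5, both MYC identifiers and TCF7 every UPHD25 library was above every DMSO library on the TMM scale. The second MYC identifier was at a log2 fold change of 0.27 and TCF7 at 0.62 (edgeR unadjusted p 0.155 and 0.121). AXIN2, a widely used Wnt target chosen here after its value was seen, had 61.5, 65.5 and 83.7 CPM with DMSO and 73.4, 128 and 66.7 CPM with UPHD25. Its groups overlapped, UPHD25 library 2 stood highest as it did for ctnnb1, and the log2 fold change was 0.35 (edgeR adjusted p 0.709). Without DMSO library 1, and likewise without UPHD25 library 2, 0 genes of this list had an unadjusted p under 0.05.

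The remaining lists were polarity, desmosome and matrix adhesion. Of 19 tested apicobasal polarity genes, 1 (5.26%) was higher at an unadjusted p under 0.05, against 9.09% of all genes, and 0 were lower. The higher gene was PALS1, a scaffold of the apical Crumbs complex. It had a low level of 0.77, 0.37 and 0.75 CPM with DMSO and 1.11, 2.21 and 4.10 CPM with UPHD25 (log2 fold change 1.91, SE 0.57, edgeR adjusted p 0.240). A second PALS1 identifier was at a log2 fold change of 0.06 with overlapping groups (edgeR unadjusted p 0.761). None of the 11 desmosome genes had an unadjusted p under 0.05. Fitted values were lower for 8 of the 11 (72.7%), against 47.3% of all genes. By library totals 5 of the 11 were lower and 6 higher. Of 19 tested integrin and laminin genes, 17 (89.5%) had a lower fitted value, against 47.3% of all genes. At that threshold 2 (10.5%) were lower, against 3.41% of all genes. By library totals 11 of the 19 were lower and 8 higher.

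The lower genes of that list were the basement membrane laminin chains LAMB2 and lamc1. LAMB2 had 185, 196 and 211 CPM with DMSO and 102, 139 and 66.3 CPM with UPHD25 (log2 fold change -0.95, SE 0.27, edgeR adjusted p 0.228). For lamc1 the values were 435, 417 and 444 CPM against 344, 309 and 267 CPM (log2 fold change -0.49, SE 0.19, edgeR adjusted p 0.326). In both the groups did not overlap. Laminins are made by several of the tissues whose markers were lower after UPHD25, muscle among them, and that part was not tested.

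For each member the genes with the most similar pattern over the 6 libraries were found by the root mean square difference of centred log2 CPM among 16785 genes with a symbol. For cdh1 these were DPT, a matrix protein gene with 0.94 to 2.15 CPM, at 0.048 and SLC26A2, a sulfate transporter gene, at 0.064. For cdh2 they were BTBD9 at 0.031 and WAC at 0.037, for ctnnb1 fbxo11a at 0.037 and fbxo2 at 0.047, and for cldnb DGAT1 at 0.042 and GCAT at 0.061. The epcam pattern had no comparably close neighbour, since its nearest genes, si:dkey-62k3.5 and si:rp71-46j2.8, were at 0.22 and 0.25 and had levels of 2.01 CPM or less. With 6 libraries and this many genes such neighbours are a description of the pattern.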

How the data were processed

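Pronephros RNA of 6 pools was sequenced with a stranded mRNA kit. Per the labels and the study's methods, the authors aligned paired reads to danRer11 with HISAT2 2.1.0 and deposited raw gene counts from featureCounts, whose version, annotation and strand setting are not given in the sources used here. The table held 32520 genes, and 29201 identifiers had a symbol in the annotation table used.

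Counts were filtered (filterByExpr, minimum count 10, minimum total 15), scaled by TMM and tested with edgeR 4.0.16 (R 4.3.3, quasi-likelihood, treatment only, Benjamini-Hochberg over 17497 genes). CPM are counts over the tested-gene total times the TMM factor. Exact permutation tests went through every split of the libraries in Python 3.11.15. The adjustment over the ratios and the Poisson interval used scipy 1.17.1, and DESeq2 1.42.0 was an alternative. Scripts were tested on simulated data. Alternatives were other scalings, filters and tests, a replicate block and leaving out each library. Same-numbered libraries deviated together (r of 0.49, 0.29 and 0.21 across genes). Libraries with different numbers were not compared, so these values cannot show that the numbers pair the pools. The labels do not state a pairing either, and it was assumed for the pair differences, the replicate block and the sign-flip test.

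The members and lists were chosen with earlier results of these data known. Named genes were all members, up to 4 per adhesion list with an unadjusted p under 0.05 and no overlap between groups, 2 nearest genes per member and up to 3 markers per cell type. No sequences or coordinates were used here.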

Additional observations from a re-analysis of the deposited data

How the results depend on the processing

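The call on each member, an adjusted p above 0.05, was the same under every alternative with a test. Both cdh1 and cldnb were lower after UPHD25 in 17 of 17 settings each. All settings reused the same 6 libraries, so these counts are no separate checks. For cldnb the log2 fold change lay between -0.63 and -0.19, with adjusted p-values from 0.189 to 0.938. The cdh2 log2 fold change, 0.02, took the other sign with DESeq2 size factors (-0.0040), DESeq2 (-0.0200) and no filter on low counts (-0.0098), as did epcam, 0.01, with the same settings (-0.0238, -0.0441 and -0.0140). Leaving out 1 library gave ranges of -0.75 to -0.44 for cdh1, -0.0885 to 0.14 for cdh2, -0.45 to 0.45 for epcam and -0.10 to 0.23 for ctnnb1. Without both replicate 1 libraries, chosen after seeing the data, cdh2 was at -0.0058 and epcam at -0.33. The cause of these sign changes was not tested. The cdh2 to cdh1 log2 ratio ranged from 0.42 to 0.81 without 1 library.

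Across all genes, DESeq2 called 636 genes at an adjusted p under 0.05, and the edgeR likelihood ratio test, added after seeing the data, called 558, against 0 for the quasi-likelihood test and 0 to 1 with a library left out. Adhesion genes at an unadjusted p under 0.05 numbered 15, and 7 to 25 with a library left out. The 14 adhesion genes named by rule kept their sign in all alternatives that tested them. They were named because their groups did not overlap in the main fit to these libraries. Leaving out 1 library could therefore hardly change a sign, and the count is no separate check.

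With the replicate block the edgeR log2 fold changes were -0.56 for cdh1, 0.01 for cdh2, 0.26 for epcam, 0.07 for ctnnb1 and -0.37 for cldnb, no call changed and 20 adhesion genes had an unadjusted p under 0.05. Over the assumed pairs the cdh2 to cdh1 difference was 0.57, with an exact sign-flip p of 0.25, the smallest that 3 pairs allow. DESeq2 with the replicate block, added after seeing the data, called 776 genes, gave cdh2 at -0.0276, and called 2 adhesion genes, LAMB2 (-1.04, adjusted p 0.0165) and cldn1 (-0.91, adjusted p 0.0486).

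With 3 pools a group, the 95% intervals of the ratio ran from 0.746 to 1.37 for cdh2, from 0.743 to 1.53 for ctnnb1, from 0.541 to 1.18 for cldnb and from 0.460 to 2.20 for epcam, and differences inside them were left unresolved here.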
